A study of Mus musculus with 10 samples.

Results

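The 52 genes described here are nuclear genes whose proteins keep, copy, transcribe, process and translate mitochondrial DNA. They were taken by symbol from a list drawn up for this purpose, and all 52 were found among the 26335 rows of the deposited expression table. RNA was sequenced from cultured mSCLC-2405 cells, a line from a primary tumor of a mouse model of small cell lung cancer made by deletion with adenoviral Cre, *Rb1* included, so that treated and control cells carried the same deletions. There were 5 libraries of control cells, for which the sample records name DMSO as the vehicle, and 5 of cells treated with 250 μM stiripentol for 48 h. Stiripentol is an antiseizure drug that also inhibits lactate dehydrogenase. All libraries come from 1 line, the question being how this machinery stood in treated against untreated cells.

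Mitochondrial DNA is a small circle that encodes a few proteins of the respiratory chain and the ribosomal RNAs and tRNAs to translate them, and every other factor of its expression is made in the cytosol and imported. A dedicated RNA polymerase reads the circle into long transcripts, which nucleases cut at the tRNAs into separate RNAs. The pieces are then modified, polyadenylated, held by RNA-binding proteins and degraded, and the messengers are translated on mitochondrial ribosomes whose products are inserted into the inner membrane. Many tumor cells depend on this machinery for respiration, and loss of many of its factors causes mitochondrial disease.

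Depth was 22375625 to 65299372 reads in control libraries (median 63607057) and 55015760 to 60670901 reads in stiripentol libraries (median 57977596), and levels are given below as log2 CPM, the log2 of a gene's reads after scaling to the total of the library. Within each group the libraries formed 2 clusters. Control 1, 2 and 3 lay together, as did control 4 and 5, and among treated libraries stiripentol 3, 4 and 5 lay together, as did stiripentol 1 and 2. Pearson correlations across genes were 0.983 to 0.997 for pairs of a group in the same cluster and 0.920 to 0.939 for pairs of a group in different clusters. Changes were therefore also computed within the cluster of 3 control and 3 stiripentol libraries (control 1 to 3, stiripentol 3 to 5) and within the cluster of 2 and 2 (control 4 and 5, stiripentol 1 and 2). Which control cluster belongs to which treated cluster was read from the library numbers of the study's own table, and the reason for the clusters is not given in the sources used here. The value written for a gene without reads was -4.82 in control 1 to 3 and -4.74 in the 7 others, which shows 2 rounds of normalization. Reads recovered from the values and scaled anew to each library total, as log2(CPM + 1), again gave 4 members lower and 7 higher (1800 and 1693 of 12306 genes). Any other difference between the rounds cannot be told apart from the change in the cluster of 3 and 3. Among neuroendocrine markers *Insm1* had 0 to 10 reads, *Chgb* 0 to 5, *Dll3* 0 to 3, *Syp* 2 to 20 and *Uchl1* 33 to 175, whereas *Ncam1* was at 6.54 to 7.27 log2 CPM. *Krt8* and *Krt18*, keratins of epithelial cells, were at 9.43 to 10.54 log2 CPM, whereas *Epcam* had 0 to 1 read and *Cdh1* 11 to 63. The pan-leukocyte marker *Ptprc* had 0 to 3 reads and the endothelial *Cdh5* and *Pecam1* 0 to 10 and 4 to 44. *Cd68* was at 2.05 to 4.17 log2 CPM in controls and 5.78 to 6.68 in stiripentol libraries, with no overlap. Of the fibroblast markers, *Pdgfra* (5.88 to 6.90 and 4.49 to 5.84) and *Col1a2* (2.87 to 3.63 in controls, from 0.19 in stiripentol libraries) were lower in all stiripentol libraries, while *Col1a1* (4.67 to 8.33 and 5.30 to 6.65) and *Dcn* (1.01 to 3.68 and 1.49 to 2.94) overlapped. The part of such shifts in the changes of the 52 genes was not tested. Less RNA of a gene in every cell and fewer cells with that RNA cannot be told apart in these bulk libraries. Reads of *Rb1* (252 to 1443) do not test its deletion, since the table does not resolve exons.

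After stiripentol, 11 of the 52 genes passed the test described below, 4 lower and 7 higher, with both directions in 4 of the steps. Of all tested genes 14.1% were lower and 13.6% higher, so the members did not stand out. Only 6 of the 11 passed whichever single library was left out. *Mtrf1*, a translation release factor, rose 2.21-fold, and *Tfb1m*, the methyltransferase of the small ribosomal RNA, rose 2.05-fold. *Mtpap*, *Supv3l1*, *Ptcd2*, *Gtpbp3* and *Fastk* rose by smaller amounts. *Nsun4*, a second methyltransferase of that RNA, fell 2.73-fold, *Fastkd5* fell 2.58-fold, *Slirp* 1.63-fold and *Ptcd1* 1.35-fold. No gene of DNA upkeep, nucleotide supply, transcription or transcript cleavage passed the test over all 10 libraries on the deposited scaling, although *Mgme1* passed it on other scalings.

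All 52 genes passed the filter (a mean above 0 log2 CPM), their reads ranging from 49 for *Mterf1a* to 13697 for *Oxa1l*. The test was limma on the deposited log2 CPM with adjustment over 12306 genes, and a gene is called lower or higher at an adjusted p under 0.05. It called 4 members lower (7.69%), where 14.1% of all tested genes were lower, and 7 members higher (13.5%), where 13.6% of all tested genes were higher. The median log2 change was 0.02 for the members and -0.06 for all genes, and of the 41 members not called, 4 (*Polg*, *Polg2*, *Mgme1* and *Dhx30*) had an unadjusted p under 0.05. Called ones included, 15 of 52 members and 5130 of 12306 genes had such a p. The 5 stiripentol libraries lay below all 5 controls for 5 members (*Nsun4*, *Fastkd5*, *Slirp*, *Ptcd1* and *Polg*), against 14.3% of all genes, and above all 5 controls for 5 members (*Mtrf1*, *Tfb1m*, *Mtpap*, *Supv3l1* and *Fastk*), against 13.0% of all genes. These shares are near or below those of the whole transcriptome. Leaving out 1 library moved the lower count to 2 without control 1, control 2 or stiripentol 2, and the higher count to 4 without control 1, control 2 or control 5. *Nsun4*, *Slirp*, *Mtrf1*, *Tfb1m*, *Mtpap* and *Supv3l1* stayed called whichever single library was left out. With only the 7 libraries of 1 normalization round, added after seeing the data, *Mtrf1*, *Tfb1m*, *Supv3l1* and *Ptcd1* stayed called, whereas *Nsun4* (limma adjusted p = 0.125), *Mtpap* (0.0711), *Slirp* (0.217), *Fastkd5* (0.211), *Fastk* (0.109), *Gtpbp3* (0.243) and *Ptcd2* (0.347) did not, and *Elac2* (0.70, adjusted p = 0.0481) and *Gfm1* (0.62, adjusted p = 0.0121) were called higher. The only controls in that fit were control 4 and 5, which form 1 cluster, so it dropped a control cluster along with a round. In control 4 and 5 *Elac2* and *Gfm1* had means of 4.24 and 5.75 log2 CPM, against 5.30 and 6.58 in control 1 to 3. With 1 mean per group and cluster no member, and none of all 12306 genes, was called (limma adjusted p 0.537 to 0.766 for the 11).

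**Figure D1:**
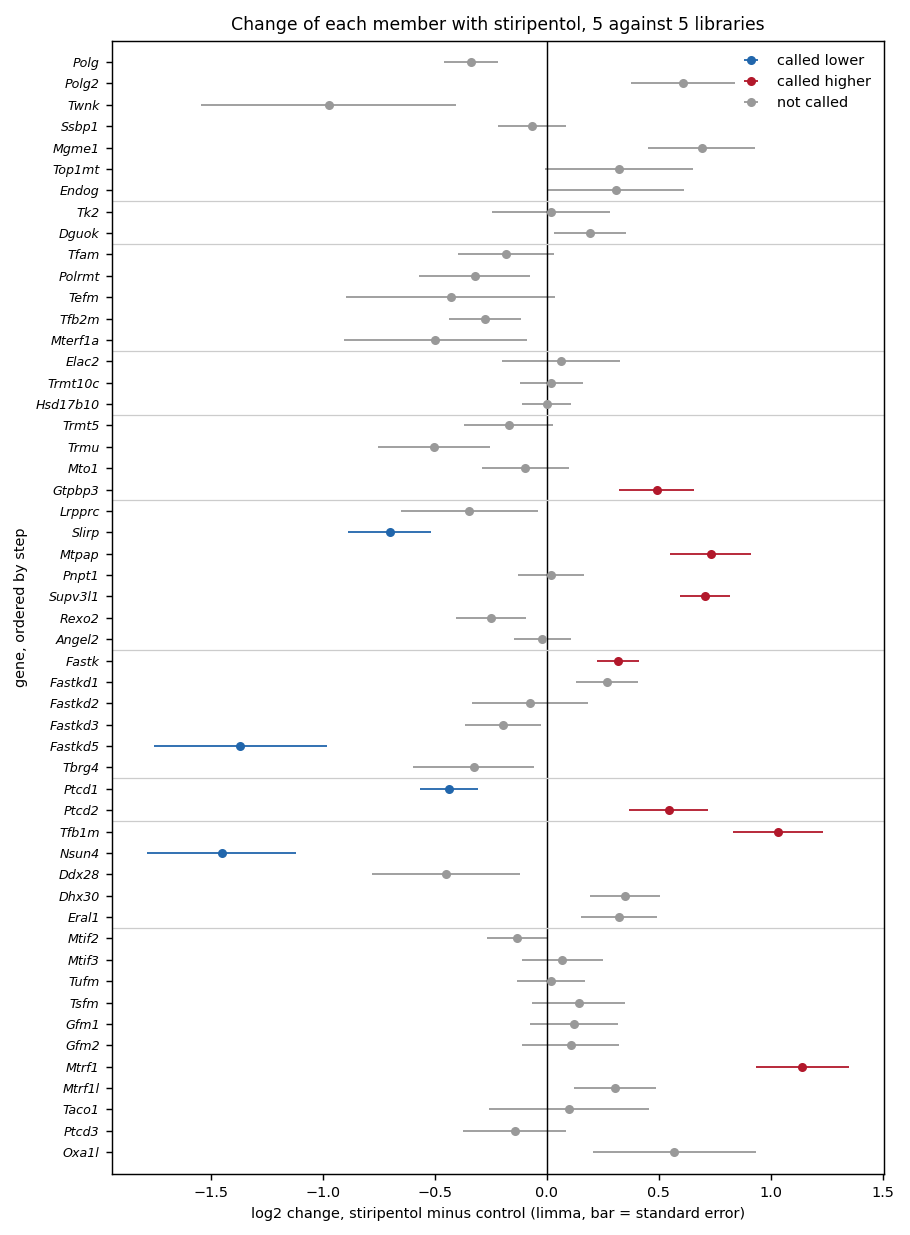
The log2 change of each of the 52 genes (x axis, stiripentol minus control, 5 libraries a group, bars show the standard error of limma), ordered by step from DNA upkeep at the top to translation at the bottom. Called genes (4 blue, 7 red) lie in the lower part of the plot, from tRNA modification on, and the wide bars of *Twnk*, *Tefm* and *Mterf1a* come with stiripentol libraries that disagree.

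The changes were not alike in the library clusters. All 11 called members had the same sign in both, which a call over the same libraries favors, and the share among all called genes was not computed. Of all 52 members 28 had the same sign, against 63.0% of all tested genes. In the cluster of 2 and 2 the log2 change was at most -0.5 for 15 members (40.7% of all genes) and at least 0.5 for 9 (18.8% of all genes), whereas in the cluster of 3 and 3 it was at most -0.5 for 3 (16.2%) and at least 0.5 for 10 (22.9%). Fitted alone in limma, the cluster of 2 and 2 called 22 members lower and 11 higher, where 45.7% and 26.2% of all genes were called, and the cluster of 3 and 3 called 9 lower and 21 higher, where 27.4% and 37.4% were. Stiripentol 1 and 2 themselves were both below the 8 other libraries for 23 members, against 38.4% of all genes, and both above them for 9 members, against 18.1% of all genes. Their TMM scaling factors, 0.841 and 0.891, were also apart from the 1.02 to 1.07 of the other libraries.

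A limma interaction of treatment and cluster called 32 members, and 63.3% of all tested genes, so the members' share was near that of all genes. Its p-values, like those of a cluster alone, measure the spread between libraries of a group in the same cluster. They do not measure how a change would vary between clusters. Of the 32, 22 had the lower change in the cluster of 2 and 2 and 10 the higher, against 45.3% and 18.1% of all genes, the same lean as in the transcriptome. That split turned with the scaling. After quantile normalization, which moves the median change of all genes from -0.06 to 0.05 and their median difference between clusters from -0.33 to 0.02, 25 members were called, 8 lower and 17 higher, against 29.0% and 31.0% of all genes. A total of 18 members were called with the same sign under both scalings, and the share of all genes called so was not computed. The split also rested on the match of the clusters: with control 1 to 3 set against stiripentol 1 and 2, and control 4 and 5 against stiripentol 3 to 5, 34 members had the lower change with stiripentol 1 and 2 and 7 the higher, against 46.4% and 25.5% of all genes. Of the 18, 10 were called with the same sign in that match too, namely *Twnk*, *Tefm*, *Tk2*, *Lrpprc*, *Eral1*, *Gfm2* and *Taco1* with the lower change in stiripentol 1 and 2 and *Polg2*, *Gtpbp3* and *Mtpap* with the higher. *Tfb2m*, *Elac2*, *Pnpt1* and *Gfm1*, with the higher change in the cluster of 2 and 2, had the lower one in the other match (for *Elac2* a log2 change of -0.63 with stiripentol 1 and 2 and 0.88 with stiripentol 3 to 5), and *Supv3l1*, *Tfb1m*, *Dhx30* and *Mtif3* were not called in it. Both matches hold the same difference between stiripentol 1 and 2 and stiripentol 3 to 5, so part of their agreement is built in. For the 10 as well, the share of all genes was not computed. Where a gene is named below for its difference between clusters, it was chosen after its values were seen.

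**Figure D2:**
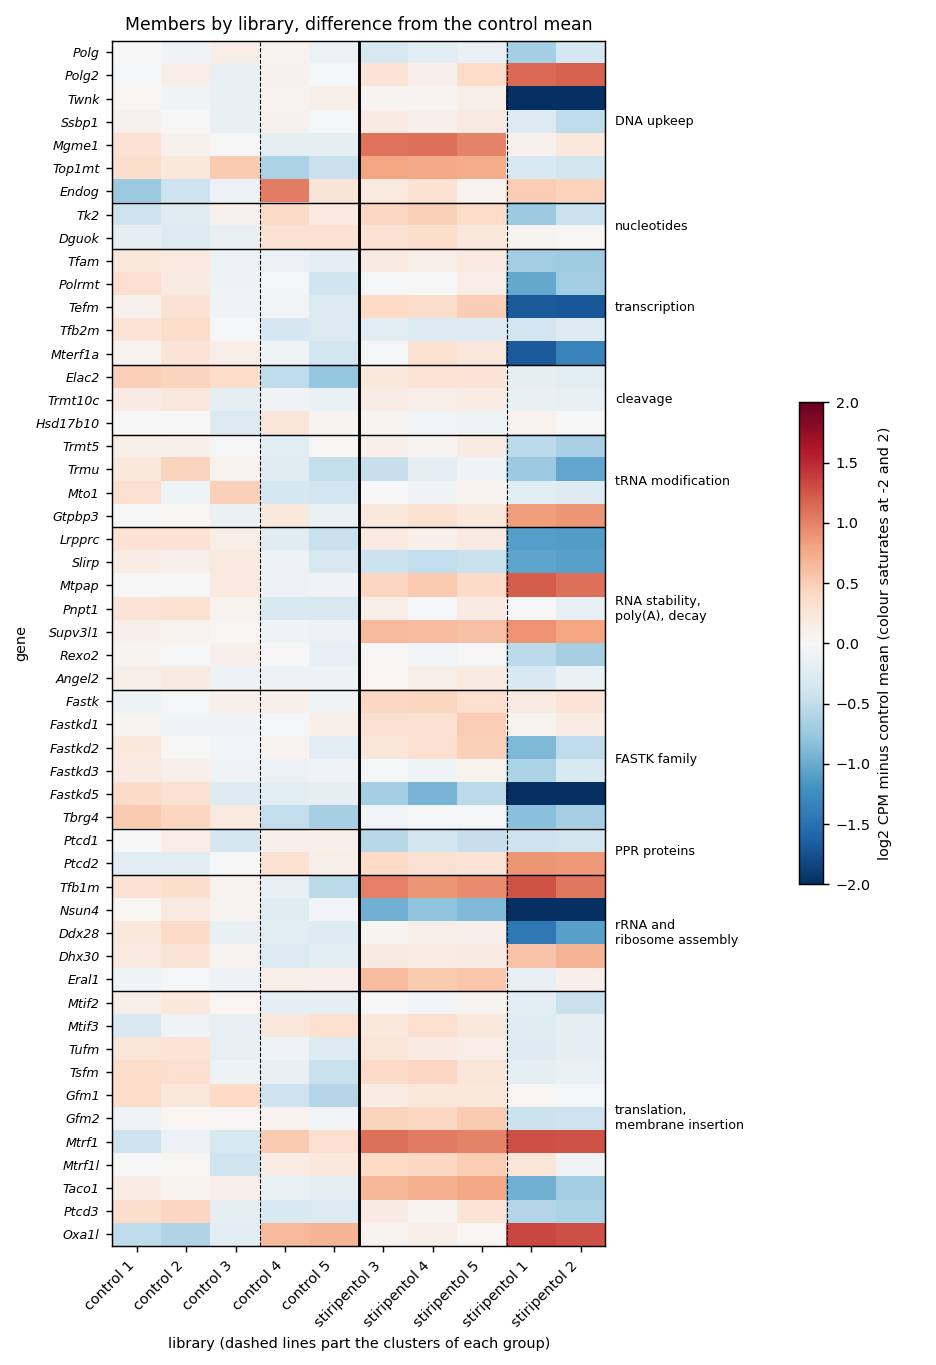
Log2 CPM of each member in each library minus its control mean (color, saturating at -2 and 2), with genes in rows by step and libraries in columns, the thick line parting control from stiripentol libraries and dashed lines the clusters. The strongest blues, *Twnk*, *Fastkd5* and *Nsun4*, are in stiripentol 1 and 2, and *Tfb1m*, *Mtrf1* and *Supv3l1* are red in all 5 stiripentol libraries.

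**Figure D3:**
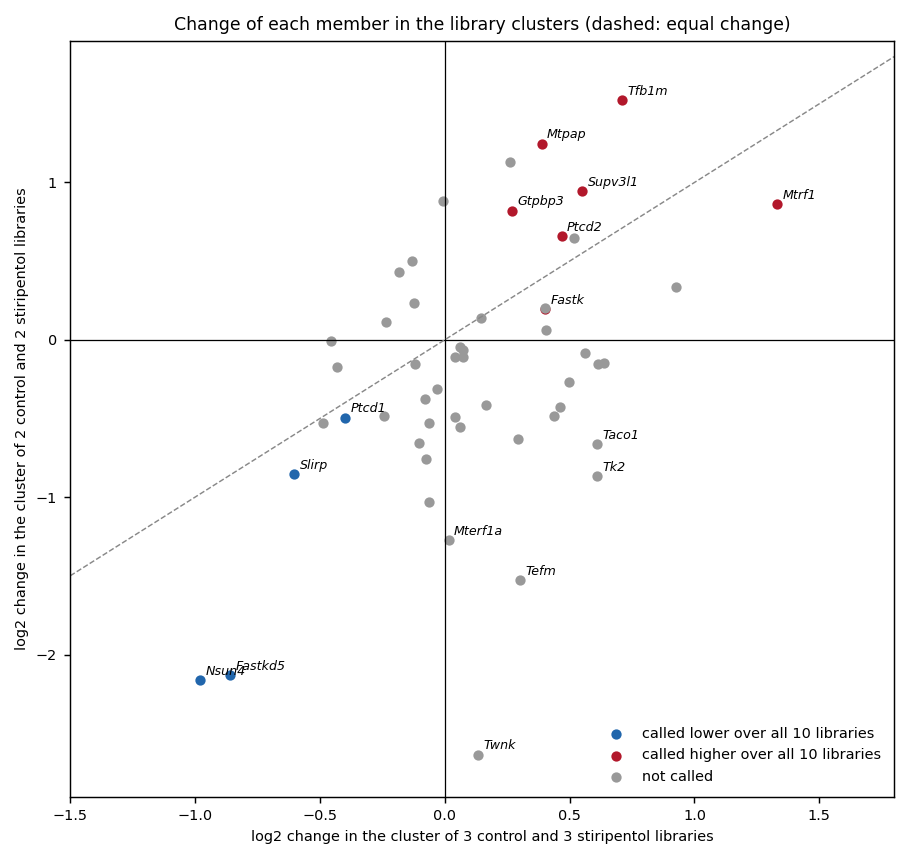
Log2 change of each of the 52 genes in the cluster of 3 and 3 libraries (x axis) against that in the cluster of 2 and 2 (y axis), with the called genes in color and the dashed line marking equal change. The called genes lie below 0 on both axes or above 0 on both, and *Twnk*, *Tefm* and *Mterf1a* lie far below 0 on the y axis and between 0.02 and 0.30 on the x axis.

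Promoter letters were read for the members because nuclear genes of this machinery are known to share binding sites of ETS-family factors (GABP, also called NRF-2) and of NRF1. RefSeq promoters (GRCm38.p6, 250 bases before to 50 after each start) were found for 49 of the 52 genes, but not for *Mtpap*, *Top1mt* or *Mtif3*. Both strands were searched. The ETS letters CCGGAAGT were in the promoters of 12 of the 49 members (24.5%) and of 4.31% of 27025 genes. Those 27025 genes were not limited to the 12306 that passed the expression filter, as all members did, so the shares are not like for like. The NRF1 letters TGCGCATGC were in 2 of 49 (4.08%, *Angel2* and *Polrmt*; 1.72% of genes), and the cyclic AMP response element TGACGTCA was in 6 (12.2%, *Ddx28*, *Dguok*, *Mterf1a*, *Oxa1l*, *Tbrg4* and *Trmt5*; 2.03% of genes). The E-box CACGTG was in 2 (4.08%, *Fastkd1* and *Rexo2*; 8.09% of genes) and the amino acid response element TGATGCAA was in 0 of 49 (1.03% of genes). The windows below hold the 12 ETS matches, ordered by the change in the cluster of 2 and 2 from the lowest to the highest, with the match in capitals in either orientation (ACTTCCGG is the same site read on the other strand).
Twnk: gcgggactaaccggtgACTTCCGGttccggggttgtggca
Fastkd5: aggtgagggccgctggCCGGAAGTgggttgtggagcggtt
Tefm: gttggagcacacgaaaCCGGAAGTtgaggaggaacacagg
Mterf1a: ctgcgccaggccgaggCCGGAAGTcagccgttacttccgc
Tfam: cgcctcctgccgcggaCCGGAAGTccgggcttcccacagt
Trmu: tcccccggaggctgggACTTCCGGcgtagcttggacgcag
Polg: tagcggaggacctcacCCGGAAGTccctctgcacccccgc
Trmt10c: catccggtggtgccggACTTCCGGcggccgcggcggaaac
Tufm: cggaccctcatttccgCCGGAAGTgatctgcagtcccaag
Gfm1: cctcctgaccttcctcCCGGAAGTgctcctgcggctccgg
Ptcd2: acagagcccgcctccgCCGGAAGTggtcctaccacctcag
Dhx30: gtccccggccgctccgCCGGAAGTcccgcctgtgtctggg

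The *Twnk* window is chr19:45006431-45006470 on the plus strand, with the first base of the site 111 bases before a RefSeq start, and the *Fastkd5* window is chr2:130629992-130630031 on the minus strand, with the site 13 bases before the start. The *Tefm* window, chr11:80142139-80142178, and the *Mterf1a* window, chr5:3893934-3893973, both on the minus strand, hold the site 9 and 24 bases before the start. Of the 12 genes, 9 had a lower level with treatment in the cluster of 2 and 2 (median log2 change -0.51), and of the 37 with a promoter and no match 24 did (median -0.15). The 3 others, *Gfm1*, *Ptcd2* and *Dhx30*, were higher there. The median log2 change of all tested genes in that cluster was -0.25. After quantile normalization *Trmu* (0.33), *Trmt10c* (0.34) and *Tufm* (0.17) were higher there too, while *Twnk*, *Fastkd5*, *Tefm*, *Mterf1a*, *Tfam* and *Polg* stayed lower. A match describes letters only, and these medians were not tested.

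Mitochondrial DNA is copied by DNA polymerase gamma, made of the catalytic Polg and the accessory Polg2, behind the helicase Twinkle (*Twnk*) and with the single-strand binding protein Ssbp1. *Polg* (GRCm38 chr7:79446231-79466362) was at 5.96, 5.90, 6.11, 6.04 and 5.86 log2 CPM in control 1 to 5 and at 5.30, 5.63, 5.66, 5.75 and 5.83 in stiripentol 1 to 5. Each stiripentol library was below each control, by a log2 change of -0.34 (SE 0.12, limma adjusted p = 0.0562), and without stiripentol 5 the gene passed the test (adjusted p = 0.047), as it did in an exact Wilcoxon rank-sum test over all libraries. *Polg2* had a log2 change of 0.61 (SE 0.23, limma adjusted p = 0.0747), and of 1.13 in the cluster of 2 and 2 against 0.26 in that of 3 and 3. The 2 subunits of the polymerase thus had log2 changes of opposite sign, with neither called over all libraries (*Polg2* was called without stiripentol 4, limma adjusted p = 0.0453).

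*Twnk* (chr19:45005663-45012762) was the member whose treated libraries disagreed most. It was at 5.50, 5.40, 5.30, 5.52 and 5.58 log2 CPM in control 1 to 5 and at 2.57, 3.26, 5.51, 5.51 and 5.58 in stiripentol 1 to 5. Stiripentol 3 to 5 lay within the range of the controls, and stiripentol 1 and 2 more than 2 log2 units below every other library. Over all libraries the log2 change was -0.97 (SE 0.57, limma adjusted p = 0.215). It was -2.64 (SE 0.20) in the cluster of 2 and 2 and 0.13 (SE 0.07) in that of 3 and 3, a difference of -2.77 (interaction in limma, adjusted p = 2.38e-06), and after quantile normalization -2.07 and 0.09. *Twnk* shares 507 exonic bases with *Mrpl43* on the opposite strand, whose log2 change was -0.05, and the strandedness of the counting is not given in the sources used here.

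Among the other genes of DNA upkeep, *Ssbp1* had a log2 change of -0.07, *Top1mt*, a topoisomerase, 0.32, and *Endog*, a nuclease, 0.31, none of them called. *Mgme1*, an exonuclease that trims replication ends, was at 3.86, 3.65, 3.58, 3.38 and 3.37 log2 CPM in control 1 to 5 and at 3.65, 3.77, 4.65, 4.68 and 4.56 in stiripentol 1 to 5. Its change of 0.69 (SE 0.24, limma adjusted p = 0.0521) came with stiripentol 3 to 5 above every control, and it was called without stiripentol 1 (adjusted p = 0.0226) or stiripentol 2 (adjusted p = 0.0392). The kinases that supply nucleotides for this DNA, *Tk2* and *Dguok*, had log2 changes of 0.02 and 0.19. *Tk2* was 0.87 lower on the log2 scale in the cluster of 2 and 2 and 0.61 higher in that of 3 and 3, each past the test within its cluster (limma adjusted p = 0.000233 and 0.00323), so that its change near 0 over all libraries is the sum of opposite changes.

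Transcription starts when Tfam, which also packages the DNA, and Tfb2m recruit the polymerase Polrmt. *Polrmt* (chr10:79736123-79746581) was at 4.98, 4.82, 4.53, 4.62 and 4.24 log2 CPM in control 1 to 5 and at 3.61, 3.94, 4.61, 4.64 and 4.77 in stiripentol 1 to 5. *Tfam* (chr10:71225464-71238280) was at 5.77, 5.75, 5.43, 5.43 and 5.38 in controls and at 4.86, 4.84, 5.73, 5.67 and 5.74 in stiripentol libraries. For both genes stiripentol 1 and 2 were the lowest of the 10 libraries and stiripentol 3 to 5 lay within the control range. The log2 change was -0.32 (SE 0.25, limma adjusted p = 0.339) for *Polrmt* and -0.18 (SE 0.21, adjusted p = 0.534) for *Tfam*. In the cluster of 2 and 2 these changes were -0.65 and -0.55, and after quantile normalization -0.20 and -0.26, so that much of the fall there moved with the scaling.

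*Tfb2m* (chr1:179528055-179546267) behaved otherwise. It was at 5.00, 5.10, 4.70, 4.39 and 4.46 log2 CPM in control 1 to 5 and at 4.35, 4.47, 4.51, 4.46 and 4.48 in stiripentol 1 to 5. The stiripentol libraries lay close together (mean 4.45, SD 0.06, n = 5), at the level of control 4 and 5, while control 1 to 3 were higher. Its log2 change was -0.28 (SE 0.16, limma adjusted p = 0.21), with -0.45 in the cluster of 3 and 3 and -0.01 in that of 2 and 2.

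The elongation factor *Tefm* (chr11:80136678-80142175) was at 3.48, 3.69, 3.33, 3.34 and 3.11 log2 CPM in control 1 to 5 and at 1.72, 1.69, 3.78, 3.74 and 3.88 in stiripentol 1 to 5. Stiripentol 1 and 2 were the lowest and stiripentol 3 to 5 the highest of all libraries. Its change was -1.53 in the cluster of 2 and 2 and 0.30 in that of 3 and 3, both past the test (limma adjusted p = 2.02e-05 and 0.0414), and -0.70 and 0.22 after quantile normalization. *Mterf1a*, a gene of the termination factor, had a log2 change of -1.27 and 0.02 in the clusters and -0.50 over all libraries (SE 0.41, limma adjusted p = 0.374). Its near copy *Mterf1b*, which can share reads with it, had a log2 change of -0.66 at a mean of 0.36 log2 CPM. None of the 5 genes of packaging and transcription was called, and their median log2 change was -0.32 over all libraries and -0.65 in the cluster of 2 and 2.

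The long transcripts are cut 5′ of each tRNA by mitochondrial RNase P, to which Trmt10c and Hsd17b10 belong, and 3′ by Elac2. None was called over all libraries. *Trmt10c* and *Elac2* had log2 changes of 0.02 (SE 0.14) and 0.06 (SE 0.26), and *Hsd17b10* stood at 6.19 log2 CPM in both groups (SD 0.19 in controls, 0.07 in stiripentol libraries, n = 5 each). *Elac2* was 0.43 higher in the cluster of 2 and 2 and 0.18 lower in that of 3 and 3 on the log2 scale, each past the test in limma.

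Of the 4 genes of tRNA modification, 1 rose. *Gtpbp3*, which with *Mto1* makes the taurine modification of the tRNA wobble base, was at 5.19, 5.22, 5.05, 5.40 and 5.04 log2 CPM in control 1 to 5 and at 6.01, 6.07, 5.40, 5.49 and 5.39 in stiripentol 1 to 5. Its log2 change was 0.49 (SE 0.17, limma adjusted p = 0.0491), carried mostly by stiripentol 1 and 2, and the call was lost without any 1 of control 1, 2, 3 or 5 or stiripentol 1, 2 or 4 (adjusted p 0.0564 to 0.111). *Mto1*, its partner, had a log2 change of -0.10. The tRNA thiolation enzyme *Trmu* and the guanine methyltransferase *Trmt5* had log2 changes of -0.50 (SE 0.25) and -0.17 (SE 0.20), not called.

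Once cut, mitochondrial messengers are held by a complex of Lrpprc and Slirp, polyadenylated by Mtpap and degraded by the Supv3l1 helicase with the Pnpt1 nuclease. In this step *Slirp* fell, *Mtpap* and *Supv3l1* rose, and their partners were not called. *Slirp* (chr12:87443896-87452206) was at 4.84, 4.81, 4.89, 4.58 and 4.39 log2 CPM in control 1 to 5 and at 3.64, 3.62, 4.26, 4.21 and 4.26 in stiripentol 1 to 5. Each stiripentol library was below each control, by a log2 change of -0.70 (SE 0.19, limma adjusted p = 0.0188), and the change was -0.85 in the cluster of 2 and 2 and -0.60 in that of 3 and 3. Of its 3104 exonic bases, 2914 lie opposite *Snw1* exons, and *Snw1*, at a mean of 7.01 log2 CPM, had a log2 change of 0.16. Without the strand of the counting, reads of these 2 genes cannot be told apart, and the level of *Slirp* is uncertain.

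*Lrpprc* (chr17:84705247-84790789), the partner of Slirp, was at 7.21, 7.22, 7.05, 6.68 and 6.48 log2 CPM in control 1 to 5 and at 5.83, 5.82, 7.13, 7.03 and 7.10 in stiripentol 1 to 5. Stiripentol 1 and 2 were below every other library, and stiripentol 3 to 5 were within the control range. Over all libraries its log2 change was -0.35 (SE 0.30, limma adjusted p = 0.409), with -0.75 in the cluster of 2 and 2, -0.07 in that of 3 and 3 and a difference of -0.68 (adjusted p = 0.000534). In the cluster of 3 and 3 *Slirp* fell and *Lrpprc* did not pass the test.

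*Mtpap*, the poly(A) polymerase, was at 4.88, 4.90, 5.09, 4.79 and 4.82 log2 CPM in control 1 to 5 and at 6.10, 6.00, 5.32, 5.43 and 5.29 in stiripentol 1 to 5. All stiripentol libraries were above all controls, with stiripentol 1 and 2 highest, and the log2 change was 0.73 (SE 0.18, limma adjusted p = 0.0143). *Supv3l1* (chr10:62429209-62449738) was at 4.70, 4.67, 4.61, 4.51 and 4.48 in controls and at 5.49, 5.39, 5.24, 5.21 and 5.19 in stiripentol libraries. It rose by 0.71 (SE 0.11, limma adjusted p = 0.00175), the members' smallest adjusted p, in both clusters (0.94 and 0.55) and with no overlap of the groups. *Pnpt1*, the nuclease that works with it, had a log2 change of 0.02 (SE 0.15), *Rexo2*, which degrades the shortest RNA pieces, -0.25 (SE 0.16), and *Angel2*, a phosphatase of RNA ends, -0.02 (SE 0.13), none of them called.

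The FASTK proteins bind mitochondrial RNA and steer the maturation of single transcripts. Of the 6 genes, *Fastkd5* fell, *Fastk* rose and 4 were not called. *Fastkd5* (chr2:130613840-130630027), needed for transcripts whose ends no tRNA marks, was at 4.46, 4.39, 3.82, 3.86 and 3.89 log2 CPM in control 1 to 5 and at 1.70, 1.79, 3.40, 3.15 and 3.54 in stiripentol 1 to 5. The groups did not overlap, and stiripentol 1 and 2 were lowest by more than 1 log2 unit. The log2 change was -1.37 (SE 0.39, limma adjusted p = 0.025), with -2.13 in the cluster of 2 and 2 and -0.86 in that of 3 and 3, and the call was lost without control 1 (adjusted p = 0.06), control 2 (0.0592) or stiripentol 2 (0.0556). Of its 3015 exonic bases, 1966 are shared on the same strand with *Ubox5*, whose log2 change was -0.49, so its level depends on how shared reads were counted.

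*Fastk* was at 6.09, 6.14, 6.28, 6.29 and 6.11 log2 CPM in control 1 to 5 and at 6.36, 6.43, 6.59, 6.61 and 6.51 in stiripentol 1 to 5. The groups did not overlap, but the change was small, 0.32 (SE 0.09, limma adjusted p = 0.0298), and its call was lost without control 1, 2 or 5 or stiripentol 3, 4 or 5 (adjusted p 0.0549 to 0.0707). *Fastk* shares 1141 exonic bases with *Slc4a2* on the opposite strand, which had a log2 change of 0.51. The other log2 changes were 0.27 for *Fastkd1*, -0.08 for *Fastkd2*, -0.20 for *Fastkd3* and -0.33 for *Tbrg4*. *Fastkd2*, known for its binding to the large ribosomal RNA, was 0.63 lower in the cluster of 2 and 2 and 0.29 higher in that of 3 and 3 on the log2 scale.

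Both genes of pentatricopeptide repeat proteins of RNA processing changed, in opposite directions. *Ptcd2* (chr13:99319647-99344705) was at 4.12, 4.12, 4.32, 4.64 and 4.46 log2 CPM in control 1 to 5 and at 5.22, 5.20, 4.73, 4.64 and 4.60 in stiripentol 1 to 5. It rose by 0.54 (SE 0.18, limma adjusted p = 0.0423), although stiripentol 4 and 5 lay at or just below control 4. *Ptcd1* (chr5:145147514-145167108) was at 4.62, 4.75, 4.29, 4.73 and 4.72 in controls and at 4.20, 4.26, 4.06, 4.25 and 4.16 in stiripentol libraries. It fell by 0.44 (SE 0.13, limma adjusted p = 0.031), by 0.49 in the cluster of 2 and 2 and 0.40 in that of 3 and 3, with control 3 only just above the highest stiripentol library. The call of *Ptcd2* was lost without control 1, 2, 3 or 5 or stiripentol 1, 2 or 3 (adjusted p 0.0536 to 0.0997), and that of *Ptcd1* when any library other than control 3 or stiripentol 1 was left out (adjusted p 0.051 to 0.0773).

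The largest changes of either sign included 2 methyltransferases of the small ribosomal RNA, the 12S RNA. Tfb1m dimethylates adenines near its 3′ end, and Nsun4 methylates a cytosine and helps to join the subunits of the ribosome. *Tfb1m* (chr17:3519256-3557781) was at 2.75, 2.81, 2.54, 2.31 and 1.92 log2 CPM in control 1 to 5 and at 3.74, 3.53, 3.47, 3.35 and 3.42 in stiripentol 1 to 5. *Nsun4* (chr4:116032842-116053876) was at 4.18, 4.33, 4.22, 3.91 and 4.09 in controls and at 1.83, 1.84, 3.19, 3.35 and 3.26 in stiripentol libraries. Neither gene's groups overlapped, and for *Nsun4* stiripentol 1 and 2 lay more than 1 log2 unit below stiripentol 3 to 5. *Tfb1m* rose by 1.03 (SE 0.20, limma adjusted p = 0.00451), by 1.52 in the cluster of 2 and 2 and 0.71 in that of 3 and 3. *Nsun4* fell by 1.45 (SE 0.33, limma adjusted p = 0.01), by 2.16 and 0.98 in these clusters, each past the test (adjusted p = 9.25e-07 and 6.53e-05). After quantile normalization *Nsun4* still fell by 1.42 and 1.09 and *Tfb1m* rose by 2.15 and 0.66.

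The other genes of ribosome assembly were not called. *Ddx28* and *Dhx30*, RNA helicases of the granules in which mitochondrial RNA matures, had log2 changes of -0.45 (SE 0.33) and 0.35 (SE 0.16). In the cluster of 2 and 2 these were -1.03 and 0.88, and in that of 3 and 3 -0.06 and 0.00, and for both genes stiripentol 1 and 2 were the only treated libraries outside the control range. *Eral1*, the chaperone of the 12S RNA, had a log2 change of 0.32 (SE 0.17, limma adjusted p = 0.171), with 0.64 in the cluster of 3 and 3 and -0.15 in that of 2 and 2, and it was called without stiripentol 1 (adjusted p = 0.0492).

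**Figure D4:**
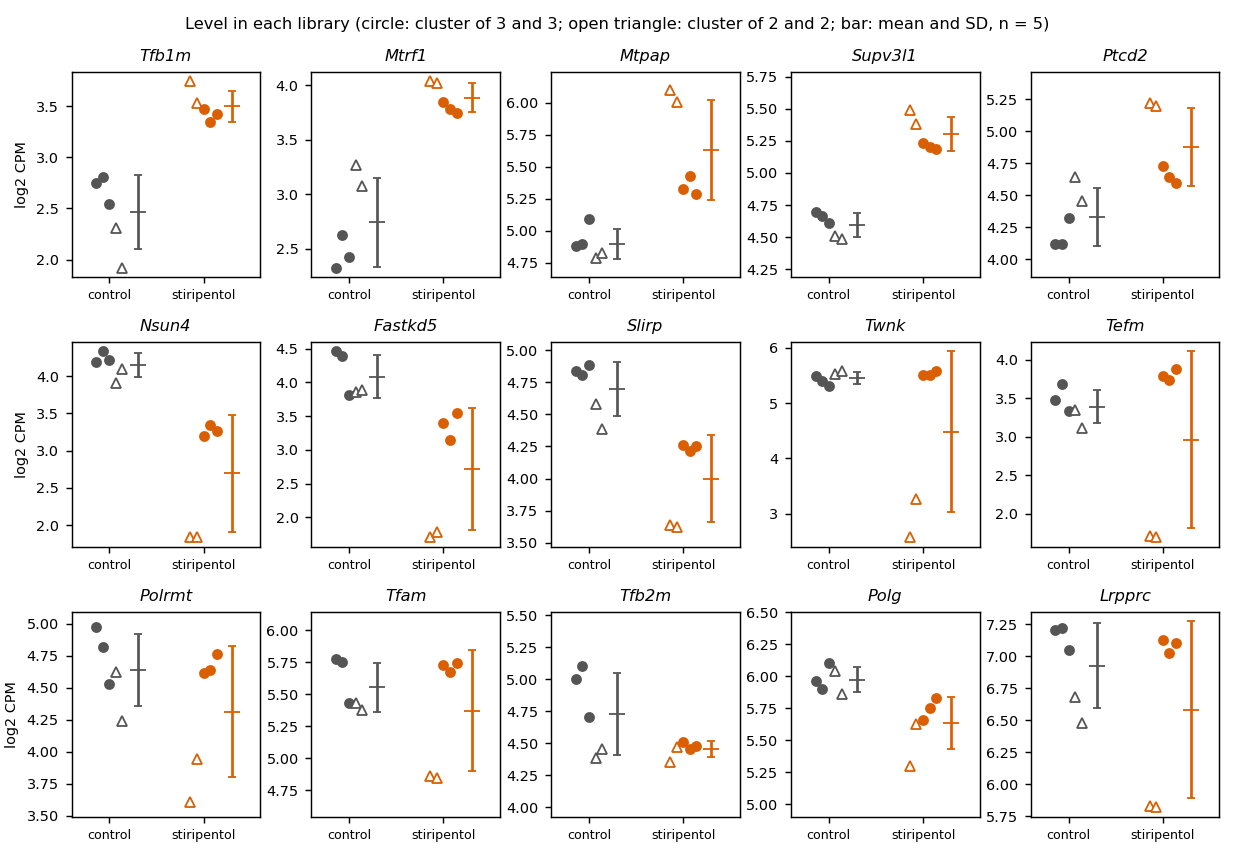
Log2 CPM (y axis, scaled per gene) of 15 members in each control (gray) and stiripentol (orange) library, with filled circles for the cluster of 3 and 3, open triangles for the cluster of 2 and 2 and bars for the mean and SD (n = 5). The groups are apart for *Tfb1m*, *Mtrf1*, *Mtpap*, *Supv3l1*, *Nsun4*, *Fastkd5*, *Slirp* and *Polg*, whereas for *Twnk*, *Tefm*, *Polrmt*, *Tfam* and *Lrpprc* only the open triangles of stiripentol fall below the controls.

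Of the 11 genes of translation and membrane insertion, 1 rose and none fell. *Mtrf1* (chr14:79397772-79423587), a release factor that ends translation at stop codons, was at 2.33, 2.63, 2.43, 3.27 and 3.08 log2 CPM in control 1 to 5 and at 4.04, 4.03, 3.85, 3.79 and 3.74 in stiripentol 1 to 5. Its log2 change of 1.14 (SE 0.21, limma adjusted p = 0.00329) was the largest rise among the members, with no overlap of the groups and a rise of 0.86 in the cluster of 2 and 2 and 1.33 in that of 3 and 3. *Mtrf1l*, the second release factor, had a log2 change of 0.30 (SE 0.18, limma adjusted p = 0.227).

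The core factors of the translation cycle were not called over all libraries. The initiation factors *Mtif2* and *Mtif3* had log2 changes of -0.13 and 0.07, the elongation factors *Tufm*, *Tsfm* and *Gfm1* of 0.02, 0.14 and 0.12, and *Gfm2*, which recycles the ribosome, of 0.11, with standard errors of 0.14 to 0.22. Within clusters, *Mtif3* fell by 0.48 and rose by 0.44 (clusters of 2 and 2 and of 3 and 3, limma adjusted p = 0.00742 and 0.0032), *Gfm2* fell by 0.43 and rose by 0.46 (0.0122 and 0.000937), and *Gfm1* rose by 0.50 in the cluster of 2 and 2 (0.00222) and had a log2 change of -0.13 in that of 3 and 3. *Ptcd3*, a protein of the small ribosomal subunit, had a log2 change of -0.14 (SE 0.23). *Taco1*, an activator of cytochrome c oxidase subunit I translation, was at 3.23, 3.16, 3.20, 2.95 and 2.90 log2 CPM in control 1 to 5 and at 2.13, 2.39, 3.76, 3.80 and 3.87 in stiripentol 1 to 5, so that treated libraries lay on both sides of all controls. *Oxa1l*, the insertase of the inner membrane, was at 5.98, 5.88, 6.26, 7.13 and 7.17 in controls and at 7.82, 7.77, 6.55, 6.61 and 6.52 in stiripentol libraries. Its log2 change of 0.57 (SE 0.36, limma adjusted p = 0.253) was about as large in both clusters, 0.65 and 0.52, but the clusters themselves differed by more than the treatment. This held for the match used here alone, since in the other match *Oxa1l* had a log2 change of 1.76 with stiripentol 1 and 2 and of -0.59 with stiripentol 3 to 5.

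Further genes of the same processes, from lists fixed alongside the members, are given here by their counts. Beside them stand the 14.1% of all tested genes called lower and the 13.6% called higher. Of 39 other genes of mitochondrial RNA and translation 1 fell and 4 rose (2.56% and 10.3%), with *Mettl15*, which methylates the 12S RNA, up by 1.21 and *Mrrf*, a recycling factor, up by 0.97 (limma adjusted p = 0.00171 and 0.0188). Of 18 other genes of DNA upkeep 2 fell and 1 rose (11.1% and 5.56%), the largest called changes being those of *Dna2*, a nuclease (-1.05), and *Samhd1*, which breaks down nucleotides (-0.83). Among 10 nuclear regulators of mitochondrial genes *Yy1* fell by 0.75 and *Gabpb1*, a subunit of the ETS factor GABP, and *Nrf1* rose by 0.71 and 0.42 (10% lower and 20% higher). Of 80 genes of mitochondrial ribosomal proteins 4 fell and 27 rose (33.8%, against 13.6% of all tested genes), with a median log2 change of 0.28. Of the RNAs that the machinery makes, reads of both ribosomal RNAs rose (*mt-Rnr1* by 2.77, *mt-Rnr2* by 1.29). Those of 10 of 13 messengers fell (76.9%), with a median log2 change of -1.99 over the 13. In the clusters of 2 and 2 and of 3 and 3 *mt-Rnr1* rose by 1.68 and 3.51, and the messenger median was -2.18 and -1.48. The sources name both a 3′ kit and total RNA libraries, so how these RNAs were captured is unclear, and read counts may not follow their amounts. No set test was run on these lists.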

How the data were processed

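RNA sequencing data of 10 libraries were analysed, 5 control and 5 stiripentol, grouped by their sample records. For each gene, the table the authors deposited holds log2 CPM of every library, computed with GENAVi. They name a Lexogen QuantSeq 3′ kit in the methods and TruSeq total RNA in the sample records. The submitters' processing notes name mm10. The aligner, annotation and strand setting are not given in the sources used here. The deposited group means, p-values with their −log10, q-values and fold changes hold the authors' own comparison and were not used.

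Whole reads were recovered from 100% of the log2 values (tolerance 0.1 read). Genes with a mean above 0 log2 CPM (12306) were tested with limma 3.58.1 in R 4.3.3 (lmFit, eBayes with trend, two-sided, Benjamini-Hochberg adjustment), without covariates, and clusters were compared by an interaction term. The scripts were tested on simulated data. Python 3.11.15 and pandas 2.3.3 were used for tables. Overlapping exons and positions are from GENCODE M21 (GRCm38), promoters from RefSeq. The members and lists were chosen with earlier results of these data known. Values per library were set to be shown for called members with an absolute log2 change of at least 0.5 and for *Polrmt*, *Tfam*, *Tfb1m*, *Tfb2m*, *Twnk*, *Polg* and *Lrpprc*; other genes shown per library were chosen after their values were seen. Alternatives were leaving out each library, replicate blocks, a cluster term, each cluster alone, 1 mean per group and cluster, other scalings, filters and pseudocounts, limma voom and an exact Wilcoxon rank-sum test. The block in the numbering of the study's table, the 7 libraries of 1 normalization round and the other match of the clusters were added after seeing the data. *Neurod1*, *Chga*, *Calca* and *Cd3e* were not analysed here. Some of the marker genes are not reported here.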

Additional observations from a re-analysis of the deposited data

Results flagged for a closer look

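Of 104 groups of 5 libraries (52 members in each group), 1 held a library far from the others by Dixon's test, where about 5.2 would be flagged by chance. The flagged library was control 3 for *Ptcd1*, at 4.29 log2 CPM, with the nearest control at 4.62.

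There were 7 members with called changes of opposite sign in the clusters and a called difference between them in limma. Of all tested genes 63.3% had a called difference between the clusters, and 63.0% had the same sign in both. The share of all genes with called changes of opposite sign was not computed. The log2 change in the cluster of 2 and 2 minus that in the cluster of 3 and 3 was -1.48 for *Tk2*, -1.83 for *Tefm*, -0.92 for *Fastkd2*, -0.92 for *Mtif3*, -0.89 for *Gfm2*, -1.27 for *Taco1* and 0.61 for *Elac2*. After quantile normalization the change in the cluster of 2 and 2 was 0.01 for *Mtif3*, 0.01 for *Gfm2* and 0.14 for *Taco1*, so that these 3 no longer had opposite signs, and it was -0.50 for *Tk2*, -0.70 for *Tefm*, -0.17 for *Fastkd2* and 0.78 for *Elac2*.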

How the results depend on the processing

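No called member changed sign under any of the 24 alternatives. This was in part fixed in advance, since the members were called on the same libraries. The replicate blocks, cluster term, filters and rank-sum test also leave the log2 change as it was. *Nsun4*, *Slirp*, *Mtrf1*, *Tfb1m*, *Mtpap* and *Supv3l1* kept their call in all 10 fits that left out 1 library. The counts of members called lower and higher, 4 and 7, ranged from 2 to 4 and from 4 to 7 in those fits. Over all genes 1740 were called lower and 1674 higher, and in those fits 1182 to 1807 and 1203 to 1706. The member counts were 1 and 4 with the replicate block of the sample titles (1062 and 1020 of 12306 genes). With the block of the study's table they were 4 and 9 (2199 and 2050 genes), and with a cluster term 8 and 11 (3336 and 2908 genes). They were 22 and 11 in the cluster of 2 and 2 alone (45.7% and 26.2% of all genes). In that of 3 and 3 alone they were 9 and 21 (27.4% and 37.4%). With the 7 libraries of 1 normalization round (control 4 and 5 against all stiripentol libraries, added after seeing the data) they were 1 and 5 (1214 and 1265 of 12299 genes). They were 0 and 0 with 1 mean per group and cluster, where 0 of 12306 genes were called. There limma gave 1 of 52 members, and 1116 of 12306 genes, an unadjusted p under 0.05. Deviations of same-numbered libraries correlated at -0.240 to 0.061 by titles and 0.084 to 0.224 by the study's table, the latter all positive but not all over 0.1, so neither numbering was used as pairing. Other scalings, filters, pseudocounts and the exact Wilcoxon rank-sum test gave 3 to 5 lower and 5 to 9 higher. Of the 10718 to 26335 genes tested, these called 1498 to 1878 lower and 1553 to 2085 higher. *Gtpbp3* and *Ptcd2* lost their call in 15 alternatives each, *Ptcd1* in 13. In a cluster alone, 7 members not called over all libraries had a called change of the opposite sign. In that of 2 and 2 these were *Tk2* (-0.87), *Mtif3* (-0.48), *Gfm2* (-0.43) and *Taco1* (-0.66). In that of 3 and 3 they were *Tefm* (0.30), *Elac2* (-0.18) and *Fastkd2* (0.29). The cause was not tested. Other members changed sign between the clusters without such a call. Members with a called difference between clusters numbered 25 to 41, 34 lower and 7 higher in the other match of the clusters. At 49 to 213 reads a library, *Mterf1a* is the least precisely measured member.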
